A study of Sus scrofa with 8 samples.

Results

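The β-defensins and the cathelicidins are antimicrobial peptide families of the pig, and their genes were described here as the study's reference annotation drew them. Members were the gene rows whose name began with DEFB, PBD, NPG and a digit, PMAP or PR39. There were 24 members among 30364 gene rows, and each was 1 of the 20661 protein-coding genes with a coding model. Of these, 19 were β-defensins and 5 were cathelicidins. The study sequenced single cells of tracheal submucosal glands (SMGs) from newborn pigs, with 4 libraries from wild-type animals and 4 from CFTR-/- animals, which lack the anion channel CFTR in every tissue. Each library was made from the glands of 1 pig with a droplet kit that reads transcripts near their 3′ ends. The annotation is a single file of gene coordinates on the pig genome build Sscrofa11.1 that served all 8 libraries. It holds no value per library, so the lengths and positions below have no replicate error, and no comparison between genotypes was made. Read counts and depth were not analysed here.

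Defensins and cathelicidins are secreted, positively charged peptides that damage microbial membranes, and both are made by epithelia and white blood cells. A β-defensin is made as a short precursor, and its mature part is held in shape by disulfide bonds between cysteines whose order and spacing are conserved. A cathelicidin is made as a longer precursor with a conserved part, the cathelin domain, followed by a peptide that differs greatly between family members and is released by proteases. The pig carries many cathelicidins, among them the cysteine-bonded protegrins, the helical peptides PMAP-23 and PMAP-36, and PR-39, which is rich in proline and arginine.

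The part of the β-defensin gene that carries the cysteine motif is shown for 6 members. They were chosen to show each length of the spacing before the last cysteine pair, and some share a length. Each stretch runs 5′ to 3′ along the coding strand of Sscrofa11.1, from the fourth to the sixth cysteine codon, with cysteine codons in capitals.
DEFB1 (chr15:38077764-38077790, plus strand): TGTggcatgccccaagtcaaaTGCTGC
DEFB1_1 (unplaced scaffold, bases 11033 to 11059, plus strand): TGTtacagtggcaaggccaagTGCTGC
DEFB114 (chr7:43982824-43982850, minus strand): TGTtactcaccaagtaagataTGCTGC
DEFB115 (chr17:35030989-35031012, plus strand): TGTgtggtcagaatgattTGCTGC
DEFB113 (chr7:43999331-43999351, minus strand): TGTgattccgagcccTGCTGT
DEFB129 (chr17:34939672-34939692, minus strand): TGCaaaaagaaaaagTGTTGT

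In the first 3 of these genes 6 codons stood between the fourth cysteine codon and the adjacent pair that ends the motif. DEFB115 had 5 codons there, and DEFB113 and DEFB129 had 4. The cathelicidins are shown by the start of the last coding segment, because its length and codon content differ between the 5 genes. It encodes the variable peptide, but the predicted PR39 transcript has only 5 codons there and 0 for proline. Each line gives up to 10 codons, with cysteine and proline codons in capitals.
NPG1 (chr13:30987559-30987588, plus strand): gttcaaggtgtcaggggaggtggcctgTGC
PMAP-23 (chr13:30961329-30961358, plus strand): cttcagagtgtcaggattatagacctgctg
PMAP-36 (chr13:30992816-30992845, plus strand): atccagagtgttggacgatttagacggttg
NPG4 (chr13:30934111-30934140, plus strand): ggtgtcaggagatttCCCtggaggtggCCG
PR39, curated transcript (chr13:30939591-30939620, plus strand): attcagagtgtcaggagacgtCCCcgaCCC
PR39, predicted transcript (chr13:30957095-30957109, plus strand): ctcaggtccTGCttc

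The genes lay in 4 clusters, defined by gaps of at most 500 kb between neighboring members, and 2 members stood alone. On chromosome 7, 5 β-defensins lay within 71.1 kb (bases 43970402 to 44041549) in the order DEFB133, DEFB114, DEFB113, DEFB110 and DEFB112. All 5 were on the minus strand, with gaps of 5962 to 19302 bp between them. No other protein-coding gene lay inside, and the nearest on either side were CRISP1, which encodes a sperm-coating protein, at 58524 bp and the transcription factor gene TFAP2D at 598731 bp.

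On chromosome 14, DEFB136, DEFB135 and DEFB134 lay within 66.8 kb (bases 15109961 to 15176787), with gaps of 32339 and 26578 bp. DEFB135 was on the plus strand and the outer genes were on the minus strand. CTSB, the gene of the protease cathepsin B, was 74879 bp before DEFB136. DEFB135 lay inside the span of GLRA3, a glycine receptor subunit gene on the same strand, but shared no exon base with it. DEFB134 also lay inside that span, on the opposite strand.

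The largest cluster was on chromosome 17, where 9 β-defensins covered 266 kb (bases 34939180 to 35205507). Their order was DEFB129, DEFB128, DEFB127, DEFB125, DEFB115, DEFB116, DEFB121, DEFB123 and DEFB124. Strand was mixed here, with 3 genes on the plus strand, 6 on the minus strand and 6 changes of strand along the row. Gaps between members ranged from 5827 to 87173 bp with a median of 23264 bp, and the widest lay between DEFB116 and DEFB121. It held LOC100157086, a gene with a placeholder name whose product is given as beta-defensin 119. Another such gene, LOC692190, lay between DEFB115 and DEFB116, with a product given as preprobeta-defensin 108-like. REM1, which encodes a small GTP-binding protein, followed DEFB124 after 2836 bp.

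DEFB1, which in human encodes the defensin that many epithelia make without stimulation, was the only member on chromosome 15 (bases 38076057 to 38077899, plus strand). The nearest protein-coding gene was LOC404703 at 10424 bp, a gene with a placeholder name whose product is given as prepro-beta-defensin 3. The nearest on that side whose product does not name the family was SPAG11 at 38448 bp, which held the cysteine motif described below. A second gene, DEFB1_1 (gene ID 404699), lay on an unplaced scaffold of 128219 bp, between bases 558 and 11154. The reference annotation calls both genes DEFB1, gives PBD-2 as a synonym of the scaffold gene and describes its product as a β-defensin 1 precursor. The numbered suffix was carried by 502 genes of the deposited annotation, of which 33 were protein-coding, and DEFB1_1 was the only member among them. It was also the only member on an unplaced scaffold, as were 5.33% of all protein-coding genes.

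The 5 cathelicidins formed a single cluster on chromosome 13 (bases 30932411 to 30993023), 60.6 kb long. NPG4, PR39, PMAP-23, NPG1 and PMAP-36 followed each other on the plus strand with gaps of 2674 to 24510 bp. The widest gap, between PMAP-23 and NPG1, held LOC110256441, a gene with a placeholder name whose product is given as protegrin-3. A run of 99123 undetermined bases ended 7087 bp before NPG4, and lay between it and MAP4, the nearest protein-coding gene on that side. Thus both families were clustered, but the cathelicidins and the chromosome 7 β-defensins kept to 1 strand and the β-defensins of chromosomes 14 and 17 did not.

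**Figure D1:**
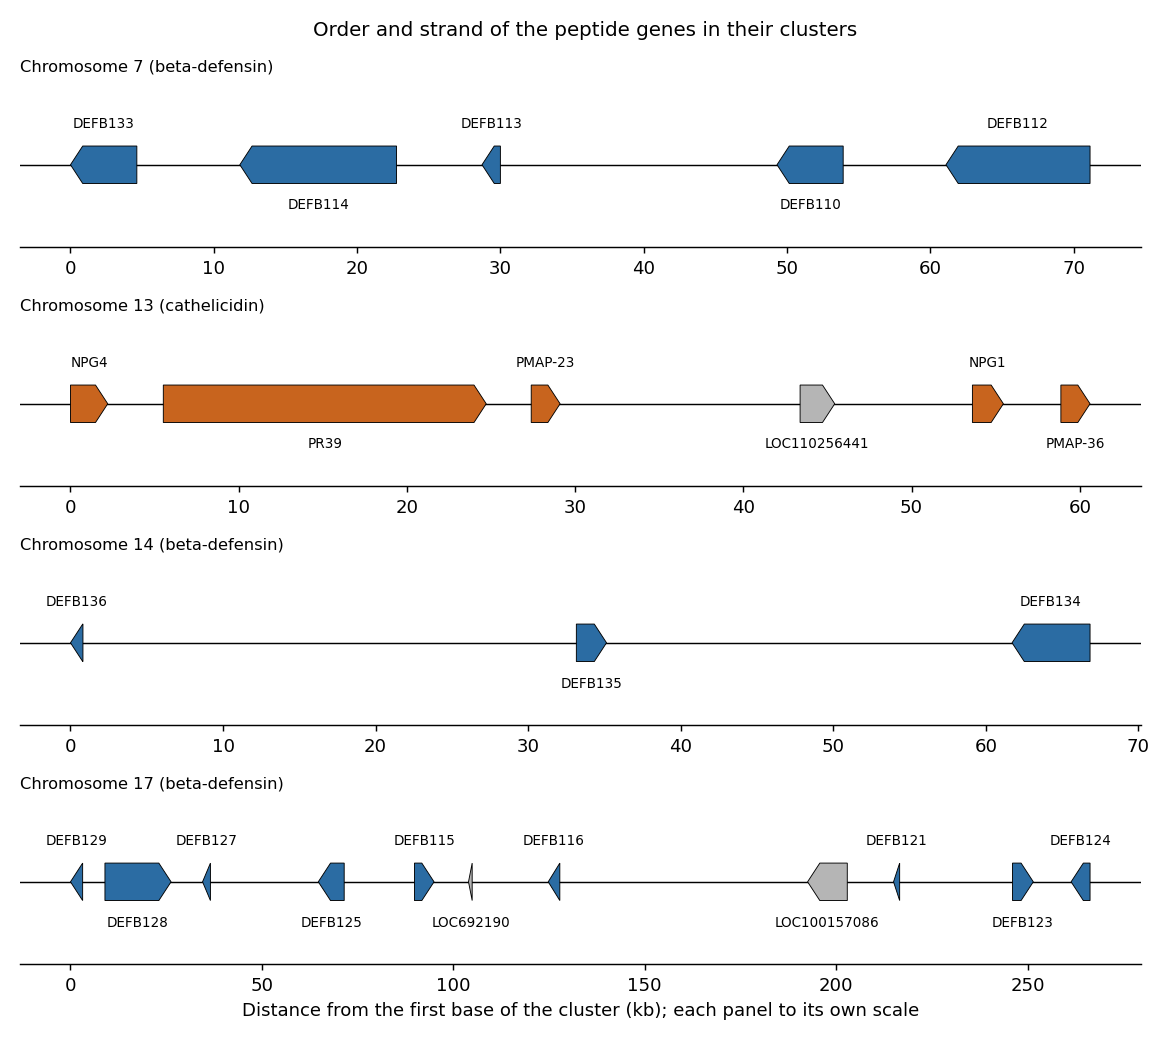
Members of the 4 clusters drawn to scale by distance from the first base of each cluster (kb), with arrowheads pointing along the coding strand. Blue marks β-defensins, orange marks cathelicidins and gray marks placeholder genes of either family. The 5 genes of chromosome 7 point left and the 5 of chromosome 13 point right, whereas the 9 members of chromosome 17 point both ways.

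β-defensins were small genes with 2 exons. In the transcript that ended farthest 3′, 17 of 19 had exactly 2 exons, compared with 7.67% of all protein-coding genes. The exceptions were DEFB115 with 3 exons and DEFB112 with 4, of which 3 held coding sequence. Coding length, counted without the stop codon, ran from 180 bp in DEFB121 to 519 bp in DEFB129, with a median of 261 bp. The median over all protein-coding genes was 1206 bp, and 13% of them had a coding length under 600 bp, as did 23 of the 24 members. The gene span was 818 bp in DEFB136, the shortest, and its median was 4632 bp, against 19194 bp over all protein-coding genes.

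The first coding segment of a β-defensin usually encodes most of the signal peptide, which was not examined here. In most members this segment was similar in length across clusters. Among the 17 members with 2 coding segments it was 58 bp in 8, which lay on chromosomes 7, 14, 15 and 17, and the same length was found in 1.03% of all genes with 2 coding segments. DEFB110, DEFB136, DEFB125 and DEFB121 had 55 bp, DEFB128 and DEFB127 had 49 bp, and DEFB1_1 had 61 bp. DEFB134 and DEFB124 stood apart with first segments of 226 and 274 bp. The members with 3 coding segments, DEFB115 and DEFB112, also had longer first segments, of 94 and 115 bp. In 19 of 19 β-defensins the first coding intron fell after the first base of a codon, a position found in 39.9% of all genes with a coding intron. The position was not particular to defensins, since 9 of 10 BPIF genes, which encode lipid-binding proteins of airway secretions, had it too. It was found in 2 of 19 genes with an S100 name, which encode calcium-binding proteins apart from S100PBP.

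The 5 cathelicidins had 4 exons each, a number found in 7.09% of all protein-coding genes. Their first 3 coding segments were 198, 108 and 72 bp in every member, and the introns between the segments fell between codons. Of all genes with 4 coding segments, 9.38% had every coding intron between codons and 0.793% had these 3 segment lengths. The latter were 12 genes, made up of the 5 members and 7 placeholder genes whose products name the same family. Only the last coding segment differed in length among the members, with 69 bp in NPG1, 81 bp in PMAP-23, 120 bp in PMAP-36 and 396 bp in NPG4. Total coding length was 447 bp in NPG1, 459 bp in PMAP-23, 498 bp in PMAP-36 and 774 bp in NPG4.

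**Figure D2:**
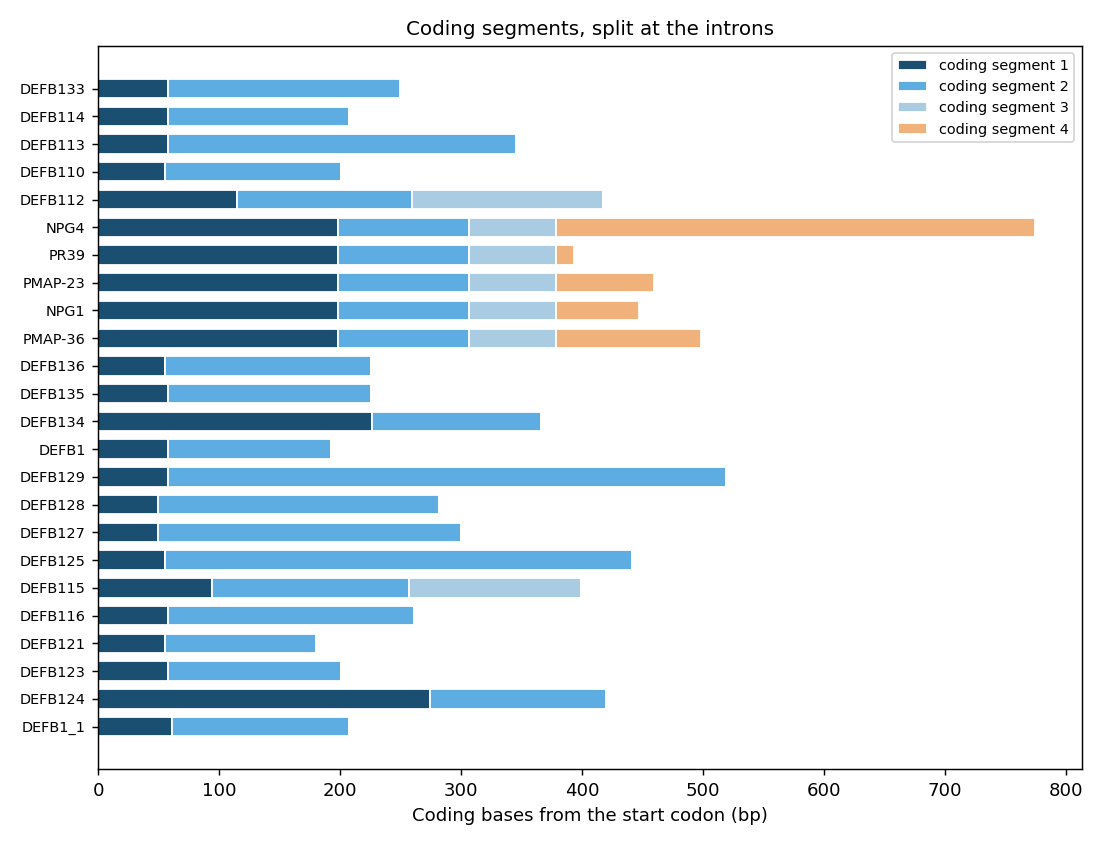
Coding bases of each member from the start codon (bp), split at the introns and colored by segment number. The 5 cathelicidins share segments of 198, 108 and 72 bp and differ in the last, from 15 bp in the predicted PR39 transcript to 396 bp in NPG4, whereas most β-defensins have a short first segment and a longer second.

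PR39 was drawn with 2 coding transcripts that end in different places. The curated transcript had a last coding segment of 126 bp, a coding length of 504 bp and a 3′ UTR of 123 bp, and its last exon spanned bases 30939591 to 30939842. The predicted transcript skipped that exon and ended in one of 33 bp at bases 30957095 to 30957127, with a last coding segment of 15 bp, a coding length of 393 bp and a 3′ UTR of 15 bp. Because of this distant exon the gene spanned 19198 bp, against a family median of 1842 bp, and took in the pseudogene LOC100626446. Values for PR39 below are for the predicted transcript, which ends farther 3′, unless stated otherwise.

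The cysteine motif was present in 19 of 19 β-defensins when read from the codons of the genome. It was defined as 6 cysteine codons with 4 to 8, 3 to 5, 9 to 13 and 4 to 7 codons between the first 5, and none between the last pair. These ranges were set with the members' sequences in view, so the count is a description of the label. Among all genes of 120 to 600 coding bp, 1.03% held it, or 28 genes. The other 9 were 7 placeholder β-defensin genes and the sperm-associated genes SPAG11 and SPAG11B.

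Within the motif the third spacing was 9 codons in every β-defensin. The second spacing was 3 codons in all members but DEFB1 and DEFB1_1, which had 4 and were alike in the other spacings too, with 6, 9 and 6 codons. The pair was not alone in this, since the placeholder gene LOC404703 had the same spacings. LOC110257049, another placeholder gene, also had a second spacing of 4 codons. The first spacing was 6 codons except in DEFB134 with 5, DEFB128 and DEFB125 with 7 and DEFB127 with 8. What followed the motif varied most. The coding sequence went on for 2 codons in DEFB1_1 and 3 in DEFB1 and DEFB110, but for 92 in DEFB125 and 119 in DEFB129. DEFB115 was the only member with the motif in a middle coding segment, and 1 further cysteine codon lay in its last segment. DEFB124 had 11 cysteine codons in all, 5 of them in its long first segment.

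In the cathelicidins the first 3 segments held 1, 2 and 2 cysteine codons in all 5 members. The last segment set the members apart. NPG1, a protegrin gene, had 4 cysteine codons among 23, whereas PMAP-36 had 1 among 40 and PMAP-23 had none among 27. The gene named NPG4 is labeled protegrin 4, but in its predicted transcript the last segment of 132 codons held no cysteine codon. Instead, 59 codons (44.7%) encoded proline, 24 (18.2%) phenylalanine and 20 (15.2%) arginine, so by these codons the gene did not match its protegrin name. The annotation gives PMAP37 as a synonym of NPG4, and PR-39 as a synonym of PMAP-23 as well as of PR39. In the last segment of the curated PR39 transcript 17 of 42 codons (40.5%) encoded proline and 11 (26.2%) arginine, as the name of the peptide states. The predicted PR39 transcript lacks this segment, and its own last segment of 5 codons held 1 cysteine codon and 0 for proline.

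Over the first 3 coding segments the 5 cathelicidins were nearly alike. Their 10 pairs were identical at 93.7% to 99.2% of bases, with a median of 95.5%. NPG4 and NPG1 differed at 3 bases, the fewest, and PMAP-23 and PMAP-36 differed at 24, the most. Hence among the members NPG4 was closest to the protegrin gene NPG1 over these segments. It differed at only 2 bases from each of the placeholder genes LOC110255221, LOC110258650 and LOC110258649. The product of the first is given as PMAP-37 and that of the others as protegrin-3-like. The last segments, which differ in length, were not aligned.

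Both families had short 3′ UTRs in the annotation. The median 3′ UTR was 138 bp in β-defensins and 107 bp in cathelicidins, against 716 bp over all protein-coding genes, 235 bp in 10 BPIF genes and 147 bp in 19 genes with an S100 name. When the 7 placeholder cathelicidin genes were added, the cathelicidin median was 242 bp, above that of the BPIF genes. Without S100PBP, which has the S100 prefix but encodes a protein that binds S100P, the S100 median was 137 bp. A 3′ UTR under 100 bp was found in 8 of 19 β-defensins and 2 of 5 cathelicidins, compared with 15.7% of all protein-coding genes. It was found in 0 of 10 BPIF genes and 4 of 19 S100 genes. With a bound of 50 bp the counts were 3 β-defensins and 1 cathelicidin, compared with 11.7% of all protein-coding genes, and with 200 bp they were 13 and 4, compared with 24.2%. No member lacked a 3′ UTR, as 8.82% of all protein-coding genes did.

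The 8 β-defensins were DEFB115 (27 bp), DEFB136 (42 bp), DEFB124 (48 bp), DEFB113 (62 bp), DEFB135 (80 bp), DEFB1_1 (86 bp), DEFB1 (97 bp) and DEFB127 (99 bp), and so came from every β-defensin location. DEFB127 was just inside the bound, and the nearest member outside it was PMAP-23 with 107 bp. Next came NPG4 with 117 bp, DEFB129 with 132 bp, DEFB112 and DEFB123 with 138 bp and DEFB128 with 139 bp. The cathelicidins under 100 bp were PR39 with 15 bp and PMAP-36 with 85 bp, and the curated PR39 transcript would not have been among them. NPG1 had the longest 3′ UTR of its family, 241 bp.

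The longest 3′ UTRs were those of β-defensins. DEFB134 had 2495 bp, DEFB133 848 bp, DEFB114 572 bp, DEFB116 564 bp, DEFB121 384 bp and DEFB125 302 bp, while DEFB110 had 169 bp. DEFB134 and DEFB133 were thus the only members above the median of all protein-coding genes.

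**Figure D3:**
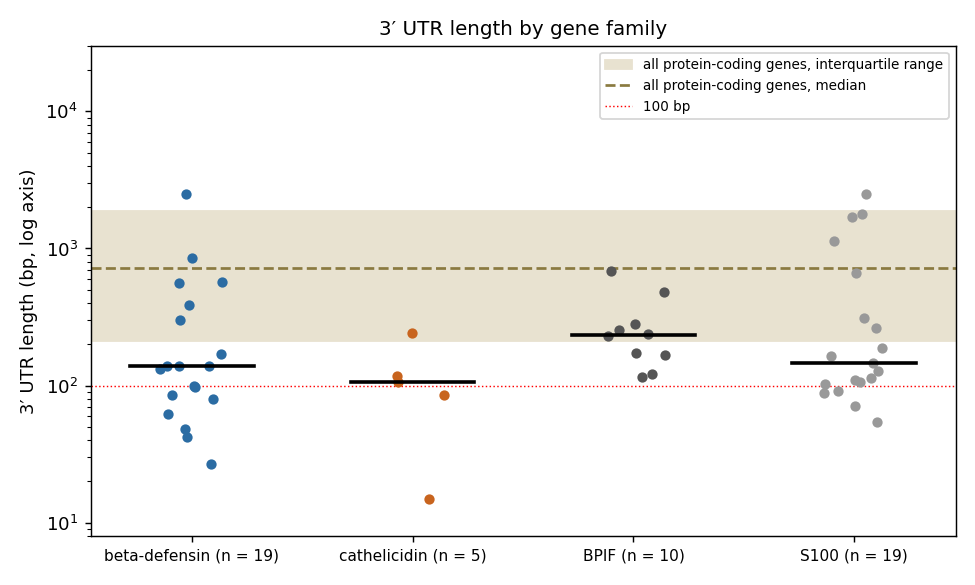
3′ UTR length (bp, log axis) of each gene in the 2 peptide families, the BPIF genes and the genes with an S100 name, with black bars at the family medians. The shaded band is the interquartile range of all protein-coding genes, the dashed line their median (716 bp) and the dotted line the bound of 100 bp. Most members lie below the shaded band, and DEFB134 with 2495 bp lies above it.

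At the other end of the transcript, the median 5′ UTR was 64 bp in β-defensins and 13 bp in cathelicidins, against 176 bp over all protein-coding genes. With the 7 placeholder genes the cathelicidin median was 164 bp, close to that of all genes. NPG1 was the only member with no 5′ UTR, as were 11.5% of all protein-coding genes. PMAP-23 and PMAP-36 had 13 bp each, PR39 had 138 bp and NPG4 had 164 bp. Among β-defensins the range was from 14 bp in DEFB1 to 1199 bp in DEFB124, which thus had the longest 5′ UTR and a 3′ UTR of 48 bp.

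**Figure D4:**
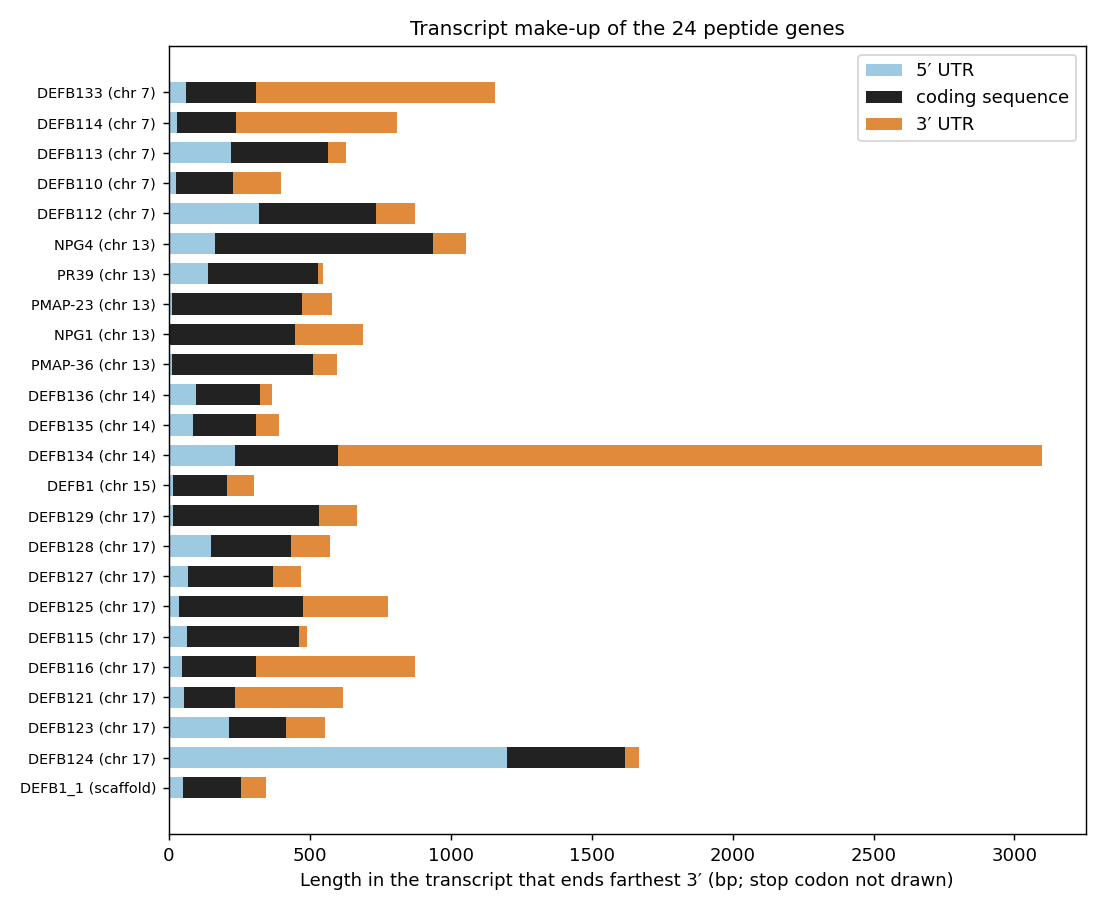
Length of the 5′ UTR, coding sequence and 3′ UTR (bp, without the stop codon) of the transcript ending farthest 3′ in each of the 24 members. DEFB134 stands out by its 3′ UTR of 2495 bp and DEFB124 by its 5′ UTR of 1199 bp.

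The study lengthened or added 3′ UTRs for some genes, and none of the 24 members was among those changed. Exons were identical to those of the RefSeq annotation in 24 of 24 members, whereas 1.14% of all protein-coding genes differed. The models rested on different evidence. RefSeq had a curated transcript for 11 members, including 5 of 5 cathelicidins, and predicted transcripts alone for 13. The curated transcript was noted to differ from the genome sequence in 7 of the 11, namely DEFB114, DEFB125 and the 5 cathelicidins. The matching shares over all protein-coding genes were not computed, so these counts cannot be read as traits of the families. For predicted transcripts RefSeq counted its own RNA-seq samples that supported every intron, which were 56 for NPG4, 40 for DEFB115 and 1 each for DEFB133, DEFB113 and DEFB134. For DEFB121 no such sample was given and RNA-seq covered 75% of the model, the lowest share among the predicted coding transcripts of the members.

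A single coding transcript was drawn for 21 of 24 members, compared with 51.1% of all protein-coding genes. The others were DEFB112, NPG4 and PR39. NPG4 had a second, curated transcript drawn with 6 exons and 690 coding bp. In it a piece of 2 bp separated segments of 179 and 131 bp. RefSeq noted 7 substitutions and 1 frameshift between this transcript and the genome. Whether the 2 bp piece stems from that frameshift was not tested.

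Signals for poly(A) addition were sought on the transcript strand as AATAAA and ATTAAA. At least 1 of these lay in the last 50 transcript bases of 13 of 19 β-defensins and 4 of 5 cathelicidins, compared with 60.9% of all protein-coding genes. The members without either hexamer there were DEFB114, DEFB134, DEFB127, DEFB116, DEFB121, DEFB123 and PR39. ATTAAA was the hexamer found in DEFB136, DEFB135 and DEFB1, and AATAAA in the rest, so that AATAAA was found in 10 of 19 β-defensins and 4 of 5 cathelicidins, compared with 49.8% of all protein-coding genes. These shares were near the background, and a missing match says only that these letters are not in that window.

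Properties that decide whether a read can be given to 1 gene were read from the models. No member shared an exon base with another gene on its strand, compared with 3.34% of all protein-coding genes. Whole spans overlapped a gene on the same strand for PR39 and DEFB135 alone, compared with 7.27%. The families differed in repeated sequence. The last 500 transcript bases were cut into overlapping words of 98 bases, and a word was called repeated where it also occurred, on either strand, in a gene elsewhere. No β-defensin had a repeated word, and 4 of 5 cathelicidins did, compared with 8.68% of all protein-coding genes.

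NPG1 had 364 repeated words of 403 (90.3%), PMAP-36 had 85 (21.1%), PMAP-23 had 82 (20.3%) and NPG4 had 0. The last exon of NPG4 was 516 bp, so its window held none of the first 3 coding segments. Transcripts of PR39, PMAP-23, NPG1 and PMAP-36 were 549 to 691 bp long, with last exons of at most 313 bp. Their windows thus took in bases of those segments. Words of PR39, PMAP-23, NPG1 and PMAP-36 also occurred in NPG4, outside its window. In PR39 300 words (74.4%) were repeated in the predicted transcript and 81 (20.1%) in the curated one, so its value rested on which 3′ end was used. Words repeated within the last 300 bases were found in PR39 and NPG1 alone, compared with 7.02% of all protein-coding genes. With words of 50 bases 0 of 19 β-defensins and 5 of 5 cathelicidins had a repeat, compared with 13.2%, and NPG4 had 40 of 451 (8.87%). How reads over these words were counted in the libraries was not tested.

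**Figure D5:**
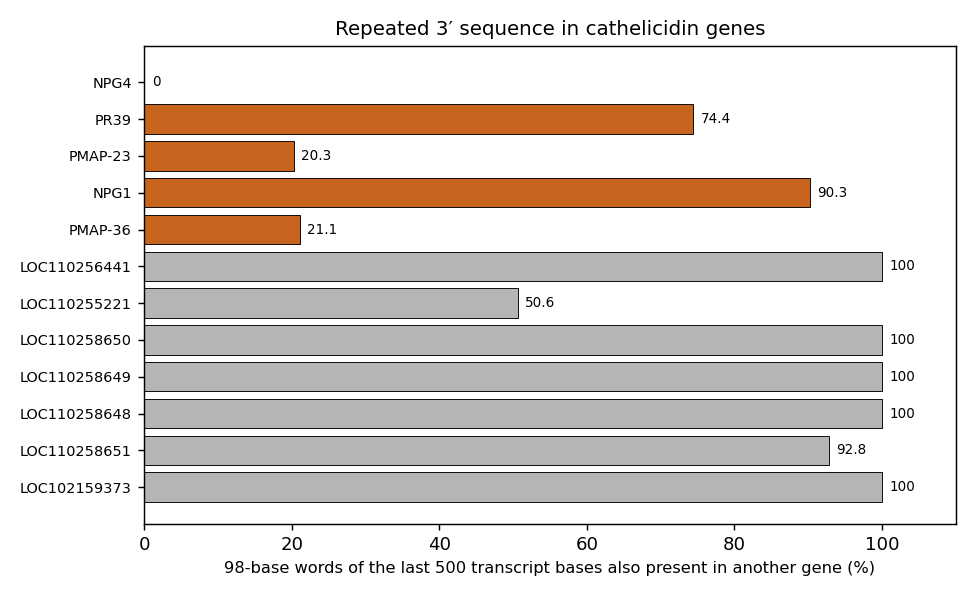
Percent of the 98-base words in the last 500 transcript bases that also occur in another gene, for the 5 cathelicidin members (orange) and 7 placeholder cathelicidin genes (gray). NPG1 (90.3%) is close to the placeholder protegrin genes (92.8% to 100%), and NPG4, whose window lies within its last exon, has none.

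Genes that act with these peptides were read from the same annotation for comparison. Of 27 listed names 26 were present, and FPR2, a receptor for the human cathelicidin peptide, was not found under that name. Their median 3′ UTR was 671.5 bp, against 716 bp over all protein-coding genes. A 3′ UTR under 100 bp was found in 4 of the 26, near the 15.7% of all protein-coding genes. Among 6 proteases the median was 223 bp. ELANE, the neutrophil elastase that releases protegrins from their precursors, had 94 bp, and the kallikrein gene KLK8 had 39 bp. Among receptors the median was 1279 bp, with 2008 bp in CCR6, a chemokine receptor that human β-defensins bind, and 0 in MC1R, the melanocortin receptor that a dog β-defensin binds. Among inducers and regulators it was 671 bp, with 671 bp in the cytokine gene IL17A and 0 in RELA, a subunit of the transcription factor NF-κB. By group, the 3′ UTR was under 100 bp in 2 of 6 proteases, 1 of 7 receptors and 1 of 13 inducers and regulators. Among the members it was so in 10 of 24. These groups are small, and the listed genes together were near the share of all protein-coding genes.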

How the data were processed

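Newborn pigs, 4 wild-type and 4 CFTR-/-, each gave a single-cell library of tracheal SMGs, and reads were aligned with Cell Ranger 3.0.2 per the submitters' processing notes. The deposited annotation used here holds feature start and end positions in bases. The authors made it from NCBI Sus scrofa Annotation Release 106 on Sscrofa11.1 and, per the file header, added or lengthened the 3′ UTR of more than 200 genes. It holds no read count, so no depth, interval or test over libraries could be given.

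Lengths were taken from the coding transcript ending farthest 3′, with ties settled by coding length. The comparison set was all 20661 nuclear protein-coding genes with a coding model. Codons, words and hexamers were read from the reference genome of the same build, on which 432 of 432 annotated sequences were found. Reference proteins were not used here, so cysteines were counted from TGC and TGT codons. Members, gene lists and comparisons were chosen with earlier results of these data known. Every member was accounted for, and values were given for each cathelicidin, DEFB1 genes, cluster ends, extremes and exceptions. Scripts were tested on simulated gene models and sequences, and 17 of 17 checks passed. Alternatives were another transcript choice, other bounds, windows and words, and adding placeholder genes. Python 3.11.15, numpy 2.4.6 and matplotlib 3.10.9 were used.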

Additional observations from a re-analysis of the deposited data

How the results depend on the processing

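For 20 results 42 alternatives were computed, of which 12 were chosen after seeing the data. In 23 the value was unchanged or, for counts, within 1.5 times the reported one. Taking the transcript with the longest coding sequence, which changed PR39 alone, moved the cathelicidin medians to 117 bp for the 3′ UTR and 498 bp for coding length, and left 1 cathelicidin with a 3′ UTR under 100 bp. Counting the stop codon moved median coding length to 264 bp in β-defensins and 462 bp in cathelicidins. Bounds of 50 and 200 bp for a short 3′ UTR gave 3 and 13 β-defensins and 1 and 4 cathelicidins. Whole spans in place of exons gave 1 overlapping β-defensin and 1 cathelicidin. Limiting words to the last 300 bases left 2 cathelicidins with repeats. Adding placeholder genes, chosen by product name, raised the cathelicidins from 5 to 12 and the number of clusters from 4 to 6. Cathelicidin medians then moved to 242 bp for the 3′ UTR, 164 bp for the 5′ UTR and 447 bp for coding length. Those of β-defensins moved to 70 bp for the 5′ UTR and 249 bp for coding length. Without S100PBP the S100 median 3′ UTR was 137 bp. No paired analysis was possible because coordinates of genes belong to no sample and carry no replicate number. Precision is limited by the gene models, and the depth of the libraries is unknown here.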

Other observations

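Placeholder names hid 15 further genes whose products name these families, 8 for β-defensins and 7 for cathelicidins, so that the annotation held 27 and 12 genes in all. Of the β-defensins, 6 lay on chromosome 15 on both sides of DEFB1, so that DEFB1 was part of a cluster when they were added. LOC404703, with the product prepro-beta-defensin 3, shared 108 exon bases with LOC106504227 on its strand, a kind of sharing found in no member. LOC692190 on chromosome 17 had its whole coding sequence of 219 bp in 1 exon and still held the cysteine motif.

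Of the cathelicidins, 5 protegrin genes lay on an unplaced scaffold of 177295 bp that also carried CDC25A, a cell cycle phosphatase gene. NPG1 and 6 placeholder protegrin genes had the same coding length, and their 21 pairs were identical at 98.4% to 100% of bases. LOC110258650 and LOC110258649 had no difference. On the same scaffold, LOC110258648 began its last coding segment, shown as above with the cysteine codon in capitals, almost as NPG1 did.
LOC110258648 (unplaced scaffold, bases 31275 to 31304, minus strand): gttcaaggtgtcaggggaggtcgcctgTGC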
